A study of Mus musculus with 6 samples.

Results

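The genes described here are 36 genes that mark the blood vessels of the brain, namely 20 genes of endothelial cells, 9 of mural cells (pericytes and vascular smooth muscle cells) and 7 of fibroblasts and their collagens. They were chosen by name from a list of vascular markers, with earlier results of these data known. They were matched by symbol to the 53379 gene identifiers of the deposited counts, where all 36 were found once. RNA was sequenced in 6 libraries of cerebral cortex from C57BL/6 mice aged 2 months. Replicates 1, 3 and 4 were labelled wild type, and replicates 5, 6 and 7 carried the genotype label GTF2ird1-/-, called knockout below. Gtf2ird1 encodes TFII-IRD1, a transcription factor whose gene is among those lost in Williams syndrome. The labels name no other allele or treatment for either group and do not say which part of the gene was changed. The series title names the material as Gad2+ neurons, but the sources used here do not say how cells were isolated, so each library is treated as a mixture of cells.

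Brain endothelial cells line the vessels and form the blood-brain barrier: claudins and other adhesion molecules seal the gaps between the cells, and transporters in their membranes decide which nutrients and drugs cross. Pericytes sit on the capillary wall within a shared basement membrane and are held there by endothelial platelet-derived growth factor acting on its receptor PDGFRβ, whereas smooth muscle cells wrap arterioles and contract through smooth muscle actin and its partner proteins. Fibroblasts lie along larger vessels and in the meninges and secrete fibrillar collagens and small proteoglycans.

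The libraries differed in ways that the groups do not account for, and these differences may bear on the values below. Total gene counts lay between 13627501 and 30544144, and a count of 0 allows up to 3 counts, worth between 0.0936 and 0.272 CPM (read counts scaled to library size, with TMM as a correction for library composition). Ribosomal RNA genes took 17.5% of the gene counts of wild type replicate 3 and 6.2% of knockout replicate 6, and between 0.0473% and 1.51% of the other 4. Gtf2ird1 itself, summed over the whole gene, was at 23.3, 31.5 and 52.6 CPM in replicates 1, 3 and 4 of wild type and at 49.6, 40.6 and 48.7 CPM in replicates 5, 6 and 7 of knockout, so the count did not separate the groups (edgeR log2 fold change 0.37, SE 0.29, adjusted p = 0.703). Since the changed part of the gene is not known here, this count does not check the labels, and the groups are named by their labels throughout. Gad2, which defines the labelled neurons, lay between 29.0 and 120 CPM, whereas the microglial receptor gene Csf1r lay between 6627 and 10840 CPM and the 16 genes of the microglia list summed to between 29990 and 48160 CPM. The 20 endothelial genes together made up between 314.7 and 568 CPM. Of this sum, Bsg, which many other cells also make, held between 129.1 and 246.9 CPM. Bsg, Eng, Pecam1, Slc2a1, Slco1c1 and Mfsd2a were set aside after the values were seen. The other 14 endothelial genes summed to between 30.7 and 111.6 CPM.

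No vascular gene passed the test between the groups, while most of them had higher mean levels in the knockout libraries. Of the 36 genes, 34 passed the filter on low counts and were tested, and 0 had an adjusted p under 0.05 in edgeR's quasi-likelihood test, where 0.00581% of all 17221 genes tested did (1 gene). Before adjustment, 7 of the 34 had a p under 0.05 with a higher level in knockout (4.48% of all genes did) and 0 with a lower level (2.77% of all genes did). DESeq2 called 0 of the 34 in either direction, with 0.0871% of all genes called higher and 0.0348% called lower. The log2 fold change of knockout over wild type was above 0 for 31 of the 34 genes (46.3% of all genes), with medians of 0.71 over the endothelial, 0.91 over the mural and 1.21 over the fibroblast genes, beside -0.03 over all genes tested. The 3 genes with a value below 0 were Pecam1, Eng and Ly6a. In 7 genes the knockout libraries were all above the wild type libraries (6.34% of all genes), namely Tie1, Slco1c1, Mfsd2a, Rgs5, Col1a2, Col4a1 and Dcn (and Lum, which was not tested), and in 0 they were all below (6.68% of all genes). As the genes were chosen with earlier results of these data known, these shares describe the list and do not test it. These are bulk libraries, in which fewer cells of a type and less RNA per cell cannot be told apart.

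**Figure D1:**
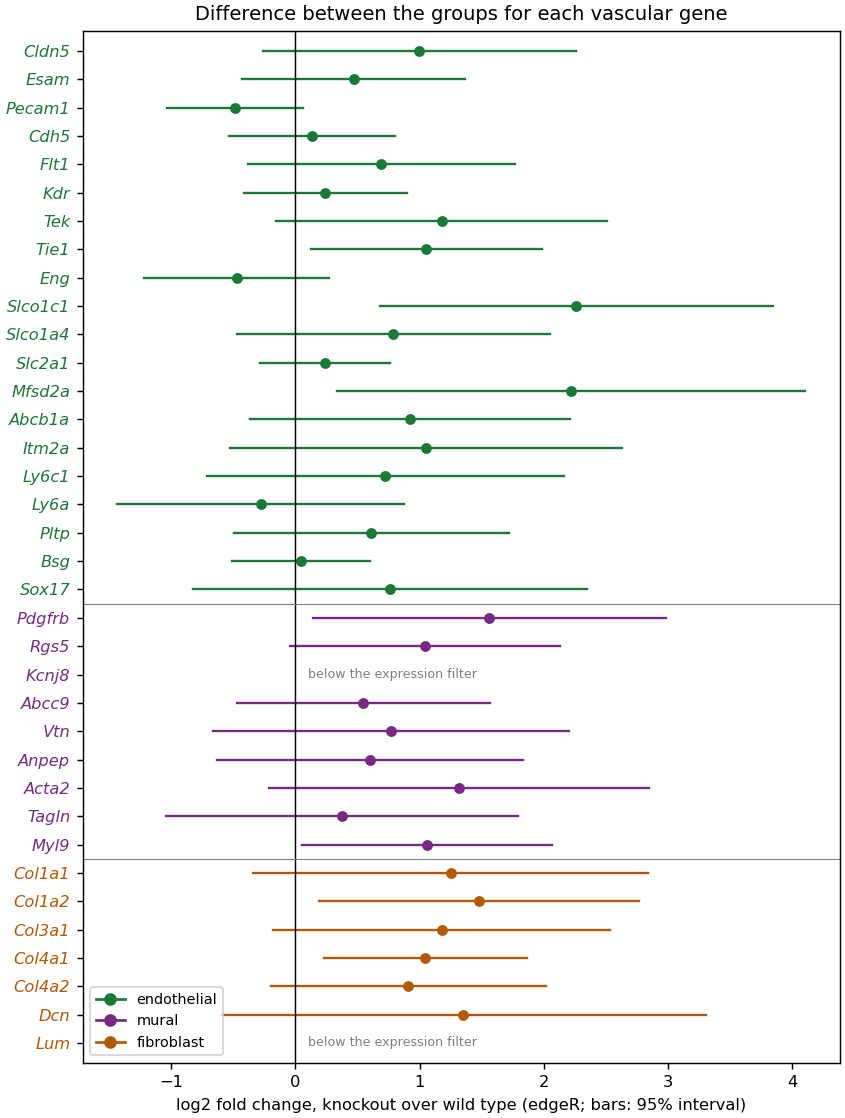
Log2 fold change of knockout over wild type (horizontal axis) for each vascular gene (vertical axis), with the 95% interval from edgeR as a bar and the cell class as colour. The points of 31 of the 34 tested genes lie to the right of 0, and the intervals of Tie1, Slco1c1, Mfsd2a, Pdgfrb, Myl9, Col1a2 and Col4a1 lie wholly above 0, before any adjustment for the number of genes.

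On a scale adjusted for exon length, mean CPM per kilobase of exon over the 6 libraries, the highest level was that of Bsg with 112 CPM per kilobase. Length was the union of all annotated exons of a gene, for instance 12426 bases for Col1a2 and 13504 for Flt1. Where this union exceeds the length of the transcripts present, the value is too low, so the order of genes is approximate. Bsg encodes basigin, a membrane glycoprotein that is abundant in brain endothelium and is also made by many other cells. Eng followed at 16.9, Slc2a1 at 12.1, Mfsd2a at 8.17, Slco1c1 at 8.14 and Pecam1 at 6.49 CPM per kilobase. Among the mural genes Rgs5 stood first with 4.68 CPM per kilobase, followed by Vtn with 3.10 and Pdgfrb with 2.18. Col4a1 led the fibroblast class with 3.59 CPM per kilobase, and the genes that are most restricted to fibroblasts lay far lower, between 0.0792 for Lum and 0.710 for Col1a2. The library ranges of neighbours in this order overlapped widely, as for Mfsd2a, Slco1c1 and Pecam1.

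**Figure D2:**
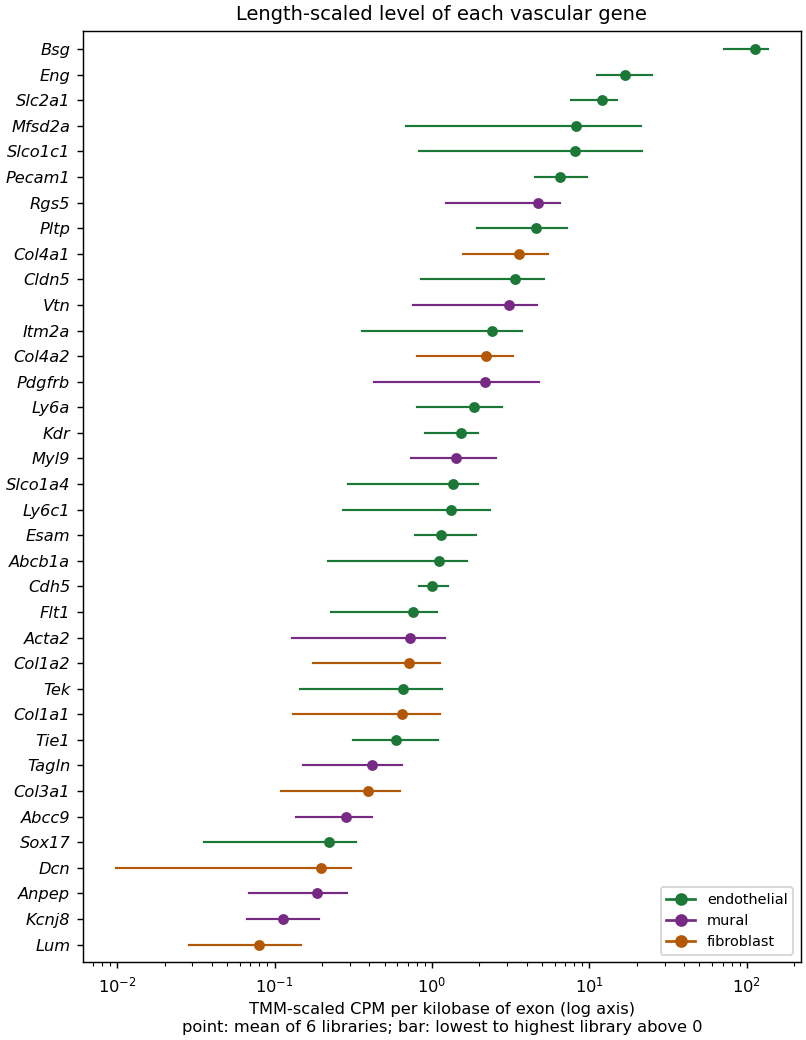
Mean level of each vascular gene per kilobase of exon (points, log axis) with the range from the lowest to the highest of the 6 libraries above 0 (bars). Bsg lies at 112 CPM per kilobase and Lum at 0.0792, and most bars overlap those of their neighbours.

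Upstream sequences are shown for a few of these genes so that the classes can be compared by motif. RefSeq windows of the 250 bases before the start, on GRCm38.p6, were at hand for 25 of the 36 genes, 26 windows in all, since Ly6c1 has a pair of start sites. The motifs searched on both strands were AGGAAG, a core recognised by ETS factors, a family with known roles in endothelial genes, and GGATTA, a core bound by repeat domains of TFII-IRD1. AGGAAG was present in 8 of 15 endothelial windows (53.3%), 0 of 7 mural windows and 0 of 4 fibroblast windows, and in 29.5% of all 32851 windows. Windows from 3 endothelial genes with a match are shown first, with AGGAAG or its reverse complement CTTCCT in capitals, and 3 windows without a match follow, 1 from each class. They are Slco1c1 at chr6:141524104-141524353 (plus strand), Slco1a4 at chr6:141856221-141856470 (minus strand), Flt1 at chr5:147726012-147726261 (minus strand), Cldn5 at chr16:18776597-18776846 (plus strand), Rgs5 at chr1:169655251-169655500 (plus strand) and Col3a1 at chr1:45311288-45311537 (plus strand), each written 5′ to 3′ towards the gene.
Slco1c1: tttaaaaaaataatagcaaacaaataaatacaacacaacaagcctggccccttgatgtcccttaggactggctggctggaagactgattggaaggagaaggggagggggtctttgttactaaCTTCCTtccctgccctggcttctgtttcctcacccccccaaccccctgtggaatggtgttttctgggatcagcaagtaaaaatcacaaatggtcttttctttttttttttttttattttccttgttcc
Slco1a4: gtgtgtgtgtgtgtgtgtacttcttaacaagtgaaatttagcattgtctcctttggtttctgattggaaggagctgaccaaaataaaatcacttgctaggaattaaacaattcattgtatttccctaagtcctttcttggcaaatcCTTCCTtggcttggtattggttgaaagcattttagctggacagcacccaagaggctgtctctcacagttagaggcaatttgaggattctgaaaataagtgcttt
Flt1: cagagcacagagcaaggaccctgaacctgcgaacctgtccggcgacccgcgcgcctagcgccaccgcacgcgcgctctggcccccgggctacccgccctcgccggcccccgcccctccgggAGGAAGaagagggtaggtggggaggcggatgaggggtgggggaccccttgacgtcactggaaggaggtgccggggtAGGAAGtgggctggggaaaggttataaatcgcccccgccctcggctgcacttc
Cldn5: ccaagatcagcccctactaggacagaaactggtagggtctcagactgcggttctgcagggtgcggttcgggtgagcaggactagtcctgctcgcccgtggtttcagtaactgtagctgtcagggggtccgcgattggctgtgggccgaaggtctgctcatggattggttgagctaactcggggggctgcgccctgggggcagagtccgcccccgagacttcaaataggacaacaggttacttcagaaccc
Rgs5: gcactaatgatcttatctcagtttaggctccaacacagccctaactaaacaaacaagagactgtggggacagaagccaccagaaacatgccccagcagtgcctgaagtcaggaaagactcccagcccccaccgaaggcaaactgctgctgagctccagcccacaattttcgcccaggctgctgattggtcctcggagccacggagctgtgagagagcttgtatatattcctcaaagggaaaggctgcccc
Col3a1: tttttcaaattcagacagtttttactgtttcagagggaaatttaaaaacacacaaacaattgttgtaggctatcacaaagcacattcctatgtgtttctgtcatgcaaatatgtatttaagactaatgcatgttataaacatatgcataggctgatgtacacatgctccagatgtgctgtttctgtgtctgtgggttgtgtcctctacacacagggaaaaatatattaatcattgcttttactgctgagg
Slco1c1 and Slco1a4, which lie 0.235 Mb apart on chromosome 6, each held 1 match, 128 and 104 bases before the start, and Flt1 held 2. The other endothelial genes with a match were Tie1, Eng, Abcb1a, Itm2a and Ly6c1, of which Itm2a and Ly6c1 had overlapping matches. The Abcb1a window belongs to a start at position 8567091 of chromosome 5, outside the counted gene, which begins at 8660077. GGATTA was found in 1 of 15 endothelial windows, at the same start site of Ly6c1 that held AGGAAG, in 0 mural and 0 fibroblast windows, and in 6.25% of all windows. The CArG box, the site of serum response factor, was found in the window of Myl9, 161 bases before the start, in 1 of 7 mural windows and in 1.47% of all. Several windows hold exon sequence. All 250 bases of the Col4a1 and Col4a2 windows lie in an exon of the other gene. Acta2, Tie1 and Col1a2 have 217, 212 and 125 bases in an exon of their own. The Anpep window belongs to a start at position 79848210 of chromosome 7, within the counted gene, which spans 79821803 to 79861059. The shares of the classes therefore do not compare upstream sequence alone. These matches describe the letters of the windows, and binding was not measured.

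Of the endothelial junction and adhesion genes, Cldn5, Esam and Cdh5 had higher mean levels in knockout and Pecam1 a lower one, and in all 4 the groups overlapped. For each gene, CPM values follow the order of replicates 1, 3 and 4 in wild type and 5, 6 and 7 in knockout. Cldn5, the claudin that closes the barrier's tight junctions, was at 5.63, 2.62 and 1.2 CPM in wild type and at 4.68, 7.30 and 7.21 CPM in knockout, from 21 to 231 reads per library. Wild type replicate 1 lay above knockout replicate 5, and wild type replicate 4 was the lowest of the 6. Group means with SD (n = 3 each, as for all means below) were 3.15 ± 2.26 and 6.40 ± 1.48 CPM, a log2 fold change of 0.998 ± 0.54 (standard error) with an adjusted p of 0.638 from edgeR. Pecam1, which encodes the adhesion molecule CD31 of endothelial junctions and is also found on leukocytes, was at 60.0, 45.8 and 35.6 CPM in wild type and at 28.2, 31.3 and 41.6 CPM in knockout. Here wild type replicates 1 and 3 were above all knockout libraries, while wild type replicate 4 lay within their range. As a log2 fold change, the difference was -0.48 ± 0.23 (SE), where edgeR gave an adjusted p of 0.637. Cdh5, the cadherin of endothelial adherens junctions, differed least, with means of 4.0 ± 0.49 and 4.38 ± 0.789 CPM and a 95% interval of the log2 fold change from -0.54 to 0.80. Esam, an adhesion molecule of the same junctions, lay between 2.22 and 5.49 CPM.

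Among the growth factor receptors, both genes of the TIE family, Tek and Tie1, had log2 fold changes above 1, beside 0.69 for Flt1 and 0.24 for Kdr, the receptors for VEGF. Tie1, which encodes the orphan partner of the receptor TIE2, was at 2.5, 1.54 and 1.60 CPM in wild type and at 2.62, 3.83 and 5.40 CPM in knockout. All 3 knockout libraries were above the wild type libraries, though knockout replicate 5 exceeded wild type replicate 1 by little and rests on 67 reads against 72. On the log2 scale the fold change was 1.05 ± 0.40 (SE, 95% interval 0.12 to 1.98), and edgeR's adjusted p was 0.637. Tek, which encodes TIE2 itself, was at 3.30, 1.63 and 0.684 CPM in wild type and at 2.85, 5.44 and 4.71 CPM in knockout, where knockout replicate 5 lay within the wild type range and the other 2 above it. Its log2 fold change was 1.18 ± 0.57 (SE), and its edgeR adjusted p was 0.637. Flt1 (VEGFR1, a decoy receptor for VEGF-A) had means of 7.84 ± 4.43 and 12.7 ± 2.73 CPM, and Kdr (VEGFR2, the main signalling receptor) 12.7 ± 3.92 and 15.0 ± 2.60 CPM. Eng, the TGF-β co-receptor endoglin, was the most abundant receptor gene per kilobase and was at 50.9, 100.5 and 87.0 CPM in wild type and at 45.2, 45.5 and 80.8 CPM in knockout. Wild type replicate 1 and knockout replicates 5 and 6 formed its low end, a different order from that of the other receptors. The log2 fold change of Eng was -0.47 ± 0.32 (standard error) with an adjusted p of 0.675 from edgeR. Flt1 lies on chromosome 5 at 13.1 Mb from Gtf2ird1, nearer than Kdr (58.4 Mb) and Abcb1a (126 Mb).

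The largest differences of all vascular genes were those of 2 barrier transporter genes, Slco1c1 and Mfsd2a, whereas the glucose transporter gene Slc2a1 differed little. Slco1c1, which encodes the thyroxine transporter OATP1C1 and is made by astrocytes as well as endothelium, was at 28.1, 10.9 and 4.27 CPM in wild type and at 112.6, 39.7 and 57.7 CPM in knockout. The groups did not overlap, and knockout replicate 5 stood well above the other 5 libraries. Means were 14.4 ± 12.3 and 70.0 ± 38.0 CPM, a log2 fold change of 2.26 ± 0.68 (SE, 95% interval 0.68 to 3.85) with an edgeR p of 0.0114 before and 0.637 after adjustment. Mfsd2a, which carries lysolipids with docosahexaenoic acid and restrains transcytosis at the barrier, was at 14.7, 2.81 and 1.54 CPM in wild type and at 48.0, 17.2 and 26.0 CPM in knockout. It had the same order of libraries as Slco1c1 in both groups. Its log2 fold change was 2.22 ± 0.80 (SE, 95% interval 0.34 to 4.11, edgeR adjusted p = 0.637). Slc2a1, the glucose transporter GLUT1 of the barrier, was the most abundant of the 5 transporters per kilobase and was at 44.2, 45.5 and 26.7 CPM in wild type and at 44.2, 40.8 and 52.4 CPM in knockout. Only wild type replicate 4 lay apart, below the others. The 95% interval of its log2 fold change ran from -0.29 to 0.77. Slco1a4, the organic anion transporter OATP1A4, had means of 6.40 ± 4.34 and 11.1 ± 1.77 CPM, and Abcb1a, the efflux pump P-glycoprotein, 4.19 ± 2.84 and 8.0 ± 1.23 CPM. Of the 50-base stretches in transcripts of Abcb1a, 22.5% also occur in another gene, mostly its copy Abcb1b, so its count is uncertain.

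The 6 other endothelial genes have varied roles and ranged in log2 fold change from -0.28 for Ly6a to 1.05 for Itm2a. Itm2a, a membrane protein gene of brain endothelium, was at 5.56, 1.90 and 0.627 CPM in wild type and at 4.53, 6.46 and 6.21 CPM in knockout. Wild type replicate 1 lay among the knockout libraries and wild type replicates 3 and 4 below them. This gave a log2 fold change of 1.05 ± 0.68 (SE), where edgeR gave an adjusted p of 0.669. Bsg was at 246.9, 223.2 and 129.1 CPM in wild type and at 212.3, 209.1 and 198 CPM in knockout. The knockout libraries were close together within the wild type range, with a log2 fold change of 0.05 ± 0.24 (SE) and an edgeR adjusted p of 0.954. Pltp, which encodes phospholipid transfer protein, had means of 9.27 ± 6.39 and 14.3 ± 4.07 CPM, and 19.3% of its exon bases overlap Ctsa on the other strand. Sox17, a transcription factor of arterial endothelium, rested on 3 to 48 reads per library. Ly6c1 and Ly6a are neighbouring genes of the Ly6 family of surface antigens on chromosome 15, and 32.8% and 19.0% of their 50-base stretches occur in other genes, so reads could be lost or split between family members.

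Of the 6 pericyte genes, Pdgfrb and Rgs5 had the largest fold changes, and Kcnj8 did not pass the filter on low counts. Pdgfrb, the receptor that keeps pericytes on the capillary wall, was at 10.9, 4.80 and 2.34 CPM in wild type and at 26.1, 8.32 and 19.3 CPM in knockout. Knockout replicate 6 lay below wild type replicate 1, so the groups overlapped. Means were 6.00 ± 4.40 and 17.9 ± 8.98 CPM, with a log2 fold change of 1.56 ± 0.61 (SE, 95% interval 0.14 to 2.98) and an edgeR p of 0.0355 before and 0.637 after adjustment. Rgs5, a regulator of G protein signalling that is a standard pericyte marker, was at 24.5, 11.4 and 5.59 CPM in wild type and at 28.5, 28.3 and 29.4 CPM in knockout. Its knockout libraries were nearly equal and all above the wild type libraries, of which replicate 1 came close. As a log2 fold change, the difference was 1.04 ± 0.46 (standard error) with an adjusted p of 0.637 from edgeR. Vtn, which encodes vitronectin, lay between 1.54 and 9.45 CPM, and Anpep, the aminopeptidase CD13, between 0.285 and 1.19 CPM. Abcc9 and Kcnj8 are neighbouring genes on chromosome 6 that encode the SUR2 and Kir6.1 subunits of the pericyte potassium channel. Abcc9 lay between 1.14 and 3.46 CPM, whereas Kcnj8 had 14, 0 and 3 reads in wild type and 7, 6 and 14 reads in knockout.

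The 3 smooth muscle genes were low in every library, at up to 2.97 CPM. Myl9, the regulatory light chain of smooth muscle myosin, was at 1.01, 1.36 and 0.855 CPM in wild type and at 2.97, 1.32 and 2.34 CPM in knockout. Knockout replicate 6 was level with wild type replicate 3, while the other 2 knockout libraries were above all wild type libraries. On the log2 scale the fold change was 1.06 ± 0.43 (SE, 95% interval 0.06 to 2.07, edgeR adjusted p = 0.637). Acta2, smooth muscle actin, was at 0.660, 1.90 and 0.285 CPM in wild type and at 2.54, 1.5 and 2.65 CPM in knockout, from 5 to 85 reads. Wild type replicate 3 exceeded knockout replicate 6. For Acta2 the log2 fold change was 1.32 ± 0.65 (SE), where edgeR gave an adjusted p of 0.637. Tagln, the actin-binding protein SM22, had between 5 and 38 reads per library, and 62.4% of its exon bases overlap the antisense gene Gm48529. The sources used here do not give the strand setting of the counting, so its reads cannot be told from those of its antisense partner.

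All 5 collagen genes had log2 fold changes between 0.91 and 1.48, and in each of them wild type replicate 1 lay far above wild type replicates 3 and 4. Col1a2, a chain of type I collagen, was at 9.24, 2.17 and 2.34 CPM in wild type and at 14.1, 12.4 and 12.7 CPM in knockout. The groups did not overlap and the knockout libraries lay close together. Means were 4.58 ± 4.04 and 13.1 ± 0.882 CPM, with a log2 fold change of 1.48 ± 0.55 (SE, 95% interval 0.19 to 2.77) and an edgeR p of 0.0301 before and 0.637 after adjustment. The partner chain Col1a1 had means of 2.43 ± 2.53 and 5.98 ± 1.45 CPM, and Col3a1, the fibrillar collagen of reticular fibres, 2.31 ± 2.04 and 5.38 ± 0.876 CPM. In both, wild type replicate 1 lay within the range of the knockout libraries. Col4a1 and Col4a2 encode the chains of type IV collagen, the network of the vascular basement membrane, and endothelial and mural cells make them as well as fibroblasts. They lie head to head on chromosome 8 with start sites 21 bases apart. Col4a1 was at 28.4, 12.03 and 11.8 CPM in wild type and at 41.0, 32.0 and 35.7 CPM in knockout. Again the groups did not overlap, and wild type replicate 1 came closest to the knockout libraries. The log2 fold change of Col4a1 was 1.05 ± 0.35 (SE, 95% interval 0.23 to 1.87) with an edgeR p of 0.0190 before and 0.637 after adjustment. Col4a2 had means of 9.997 ± 7.42 and 19.0 ± 3.35 CPM and a log2 fold change of 0.91 ± 0.47 (SE), and its edgeR adjusted p was 0.638.

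Both small proteoglycan genes, neighbours on chromosome 10 whose products bind collagen fibrils, were at very low levels. Dcn, which encodes decorin, was at 1.49, 0.272 and 0.0570 CPM in wild type and at 1.68, 1.80 and 1.65 CPM in knockout. In reads, wild type replicates 3 and 4 had 3 and 1, at or under the limit that a count of 0 allows, while wild type replicate 1 had 43 and was just below the knockout libraries. This gave a log2 fold change of 1.35 ± 0.83 (standard error) with an adjusted p of 0.661 from edgeR, the widest error of the tested members. Lum, which encodes lumican, had 2, 2 and 0 reads in wild type and 7, 6 and 9 reads in knockout and was not tested.

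The wild type libraries lay further apart in most vascular genes than in the median gene. The highest wild type library exceeded the lowest more than 3-fold for 22 of the 34 tested genes (19.3% of all genes), and the median of this ratio was 4.05 for the vascular genes and 1.63 for all genes. A wide spread was not particular to the vascular genes. For the lists of other cells given below, the median ratio was 9.97 (astrocyte), 9.29 (oligodendrocyte) and 14.9 (oligodendrocyte precursor). It was 3.75 for the neuron, 3.61 for the border macrophage and 1.71 for the microglia list. Replicate 1 was the highest wild type library for 28 of the 34 (34.8% of all genes) and replicate 4 the lowest for 29 (39.7% of all genes). In the knockout group the highest library exceeded the lowest more than 3-fold for 2 genes, Pdgfrb and Tagln (3.21% of all genes), and the median ratio was 1.49 beside 1.34. The median endothelial gene was at 8.69, 4.30 and 2.05 CPM in wild type and at 7.92, 10.4 and 10.4 CPM in knockout. The median fibroblast gene was at 5.35, 1.18 and 1.08 CPM in wild type and at 6.05, 5.62 and 7.39 CPM in knockout. Wild type replicate 1 thus lay near the knockout libraries in both classes. The mural class showed this order in its pericyte genes, whose median was at 6.22, 2.22 and 1.34 CPM in wild type and at 5.49, 4.64 and 6.13 CPM in knockout. The 9 mural genes summed to 51.5, 25.0 and 13.3 CPM in wild type and to 73.4, 50.3 and 68.8 CPM in knockout, again with wild type replicates 3 and 4 lowest. The median over all mural genes was the value of Myl9, Abcc9, Tagln or Acta2, depending on the library, and lay at 1.01, 1.63 and 1.08 CPM in wild type and at 2.54, 1.5 and 2.65 CPM in knockout.

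**Figure D3:**
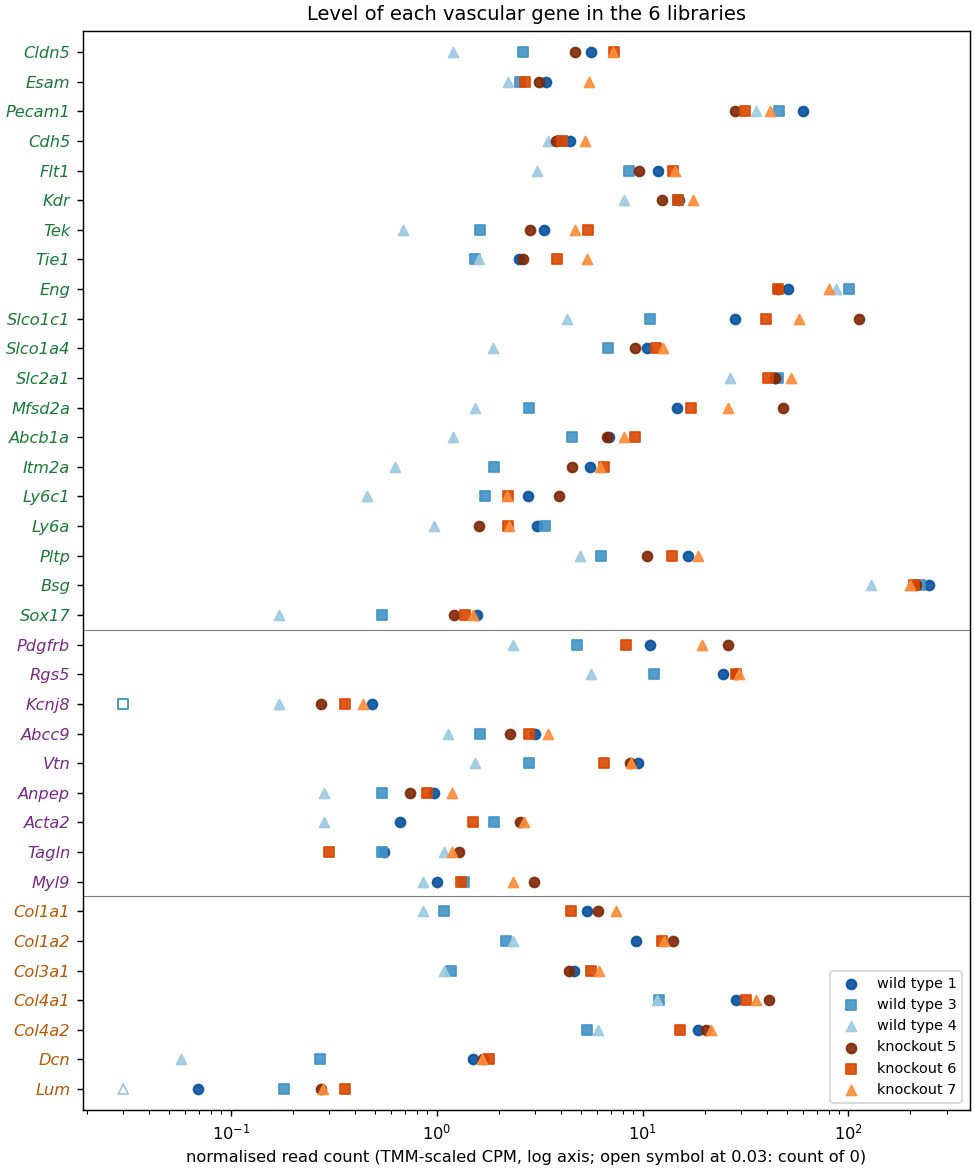
Level of each vascular gene (vertical axis) in each library as TMM-scaled CPM (horizontal log axis), with blue symbols for wild type and brown to orange symbols for knockout. For most genes wild type replicates 3 and 4 lie to the left, and wild type replicate 1, the highest wild type library for 28 of the 34 tested genes, lies near the knockout libraries.

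Without wild type replicate 1, edgeR called 8 of the 34 genes higher in knockout (adjusted p under 0.05, 1.77% of all genes) and 0 lower (0.0866% of all genes). They were Slco1c1 (log2 fold change 3.23, adjusted p = 0.0499) and Mfsd2a (3.84, adjusted p = 0.0371) of the transporters, and Rgs5 (1.77, adjusted p = 0.047) of the pericyte genes. The remaining 5 were all of the collagen genes, with log2 fold changes from 1.60 (Col4a1) to 2.64 (Col1a1) and adjusted p-values from 0.0243 (Col1a2) to 0.0396 (Col3a1). For these 8 genes the adjusted p reached 1 under other alternatives. Leaving out any other single library gave 0 calls among the vascular genes. The fit without wild type replicate 1 rests on 2 wild type libraries, and 1 of them is the library with the most ribosomal RNA. Without both libraries that were highest in ribosomal RNA, a comparison added after the data were seen, 0 vascular genes were called and the class medians were 0.64 (endothelial), 0.64 (mural) and 0.97 (fibroblast).

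Within the knockout group the genes took different orders of the libraries, which was noticed after the values were seen. Knockout replicate 5 was the lowest of its group for 14 of 20 endothelial genes, and for 17 of all 34 tested genes (33.2% of all genes). Among the endothelial genes it was the highest of its group for Slco1c1, Mfsd2a, Ly6c1 and Bsg. The ratio of knockout replicate 5 over replicate 6 had a median of 0.859 over the endothelial, 1.52 over the mural and 1.21 over the fibroblast genes, beside 1.01 over all genes tested. It was past 2-fold for 5 of the 34 genes (5.5% of all genes). These were Slco1c1 with 2.84 (95% counting interval 2.61 to 3.09), Mfsd2a with 2.79 (2.45 to 3.18), Pdgfrb with 3.14 (2.61 to 3.80), Myl9 with 2.25 (1.39 to 3.81) and Tagln with 4.31 (1.67 to 14.1). In contrast, Cldn5 was at 0.642 (0.495 to 0.833), Flt1 at 0.677 (0.564 to 0.814) and Tek at 0.523 (0.379 to 0.720). The endothelial markers therefore did not share a single order, and Slco1c1 and Mfsd2a, with the largest fold changes between groups, lay apart from the receptors and the claudin. Other endothelial genes lay between Mfsd2a and Cldn5, such as Ly6c1 at 1.76, Esam at 1.16 and Eng at 0.994. Each ratio rests on 2 single libraries, and its interval covers counting error only, not the spread between libraries. The 16 genes of the astrocyte list had a median ratio of 2.34 and the 16 of the microglia list one of 0.828. Whether transcripts of astrocytes take part in the values of Slco1c1 and Mfsd2a was not tested.

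**Figure D4:**
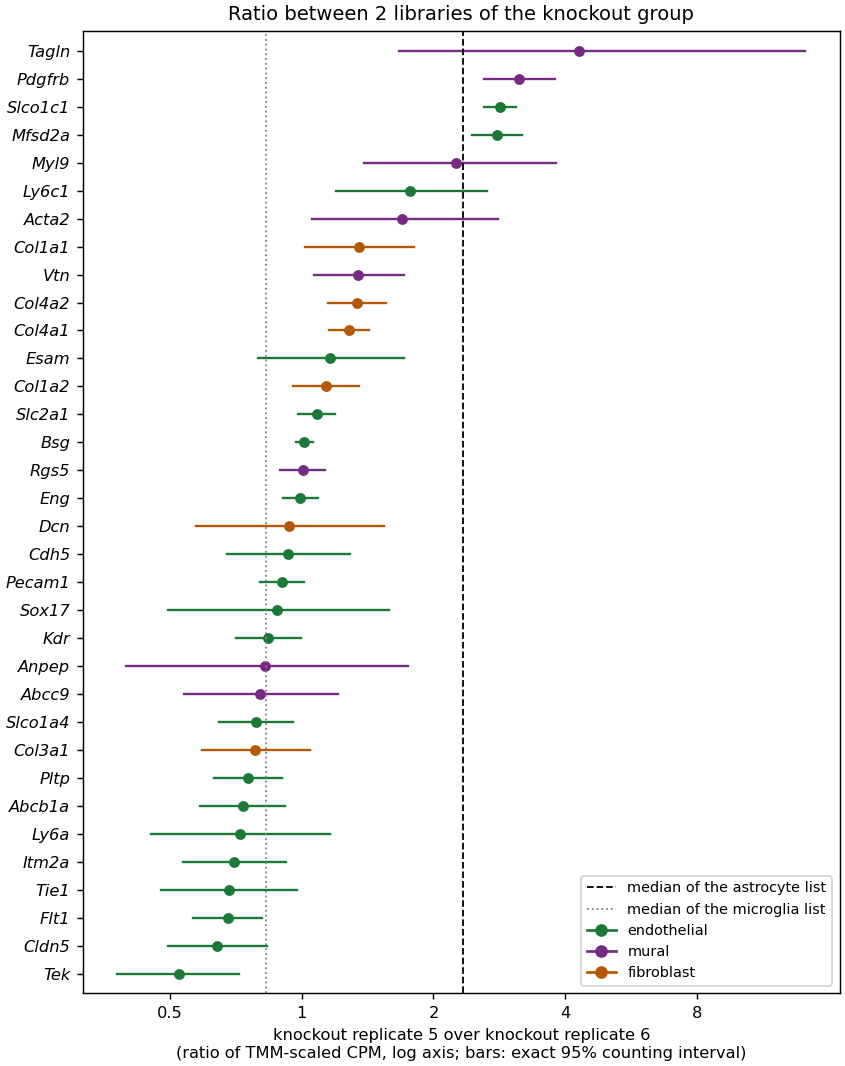
Ratio of TMM-scaled CPM in knockout replicate 5 over knockout replicate 6 (horizontal log axis) for each tested vascular gene, with exact 95% counting intervals as bars and the medians of the astrocyte and microglia lists as vertical lines. Tagln, Pdgfrb, Slco1c1 and Mfsd2a lie to the right of the astrocyte median of 2.34, and Cldn5, Flt1 and Tek lie to the left of 1.

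Genes that act with these markers were read from 3 further lists, and none of their members passed the test. Of 46 genes of vascular signalling, 42 were tested, 30 had a log2 fold change above 0 (46.3% of all genes) and 13 were higher in all knockout libraries than in any wild type library (6.34% of all genes). Vegfa, the growth factor for FLT1 and KDR, was at 22.5, 9.86 and 9.63 CPM in wild type and at 92.5, 31.1 and 48.3 CPM in knockout, with a log2 fold change of 2.02 ± 0.49 (SE), where edgeR gave an adjusted p of 0.637. The groups did not overlap, and the knockout libraries had the same order as for Slco1c1. Notch3, the Notch receptor of mural cells, was at 8.55, 3.35 and 2.11 CPM in wild type and at 17.4, 10.9 and 13.9 CPM in knockout (1.57 ± 0.50, edgeR adjusted p = 0.637). Apcdd1, a Wnt target at the barrier, had a log2 fold change of 1.05 ± 0.27 with the same adjusted p. Receptors with higher levels, such as Nrp1, Notch1 and Lrp6, had log2 fold changes of -0.21, -0.09 and -0.10.

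The barrier and junction list held 21 genes, all tested, with a median log2 fold change of 0.25 and 12 values above 0 (46.3% of all genes). Its smallest p-values were those of Slc16a1, the monocarboxylate transporter MCT1 (log2 fold change 0.75 ± 0.29), Slc38a3, a glutamine transporter (1.75 ± 0.69), and Tfrc, the transferrin receptor (0.53 ± 0.25), all with an edgeR adjusted p of 0.637. The basement membrane list held 17 genes, all tested, with a median of 0.66 and 11 values above 0. There the smallest p-values belonged to the laminin genes Lamc1 (0.48 ± 0.14) and Lama2 (1.60 ± 0.51) and the perlecan gene Hspg2 (0.97 ± 0.35), again with an adjusted p of 0.637. Transcripts of both lists are made by several cell types, and Sparc, for instance, was at a mean of 2745 CPM.

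Further markers of the same cells were read from 3 additional lists, also chosen with earlier results known. These lists share some genes with other lists here. Notch3, Ptprb, Sox18 and Slc38a5 are also in the signalling or barrier lists above. Cspg4 and Pdgfra are also in the list of oligodendrocyte precursor genes below. In the second endothelial list 16 of 17 genes were tested, with a median log2 fold change of 0.54 and 13 values above 0. Of the second mural list 8 of 15 were tested, all 8 above 0 with a median of 1.37. The smooth muscle myosin gene Myh11 there was at 0.799, 2.26 and 0.456 CPM in wild type and at 3.51, 2.69 and 4.40 CPM in knockout. Of the second fibroblast list 12 of 15 were tested, with a median of 1.0 and 11 values above 0. Over all genes tested, 46.3% had a log2 fold change above 0. As with the members, no gene of these lists had an adjusted p under 0.05 in edgeR's test.

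Markers of other brain cells differed between the same libraries. The 16 astrocyte genes summed to 3886, 679.1 and 341.4 CPM in wild type and to 6959, 3815 and 4338 CPM in knockout, and all 16 had a log2 fold change above 0 with a median of 1.74. The 14 oligodendrocyte genes summed to 2503, 563.4 and 178.7 CPM in wild type and to 2513, 2085 and 2572 CPM in knockout, with a median of 1.37. In both lists wild type replicates 3 and 4 were low and wild type replicate 1 lay at or near the knockout range, the order also seen in the medians of the endothelial, pericyte and fibroblast genes. The smooth muscle genes did not have this order. Their median was at 0.660, 1.36 and 0.855 CPM in wild type, with replicate 1 lowest, and at 2.54, 1.32 and 2.34 CPM in knockout. The microglia list differed in sign, with a median of -0.24 and 0 of 16 values above 0. Of the 12 neuron genes, 11 had a log2 fold change above 0 with a median of 0.52. Their median level was at 27.5, 11.7 and 9.80 CPM in wild type and at 26.2, 29.8 and 23.5 CPM in knockout, so wild type replicates 3 and 4 were low here too. Their sum, in contrast, came to 430.3, 260.4 and 785.2 CPM in wild type and to 894, 706.8 and 555.3 CPM in knockout, where wild type replicate 4 was not low. All 9 genes of oligodendrocyte precursors had a log2 fold change above 0 with a median of 1.22. They summed to 285.5, 96.7 and 410.6 CPM in wild type and to 608.7, 517.4 and 322 CPM in knockout, and wild type replicate 4 exceeded knockout replicate 7. No gene of these 5 lists had a count of 0 in any library. The part of these cell mixtures in the vascular values was not tested.

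**Figure D5:**
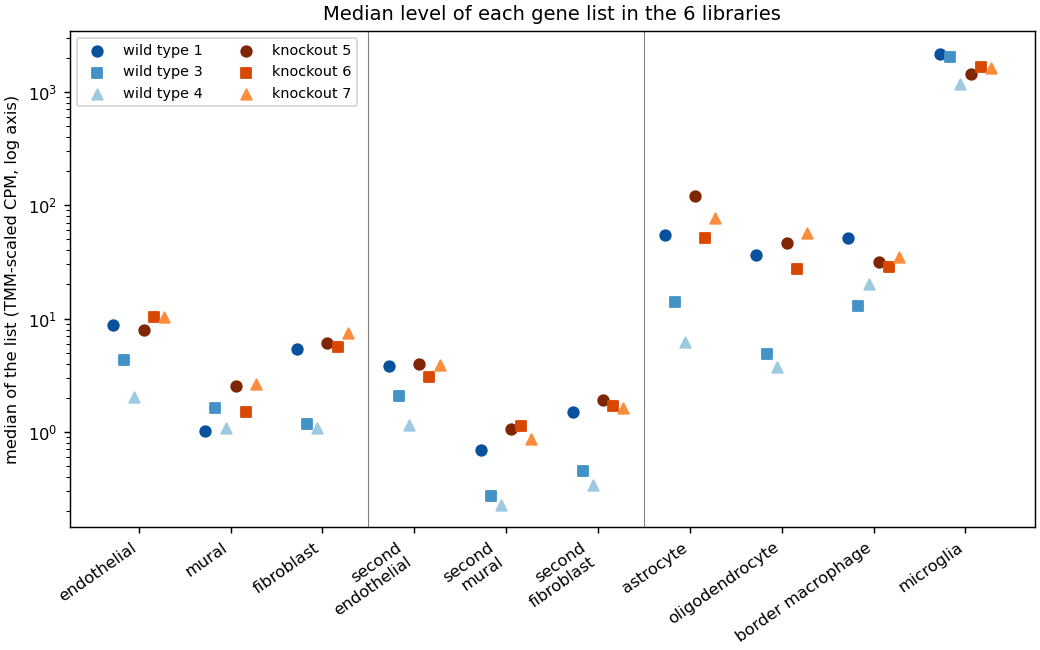
Median level of the genes of each list in each library (vertical log axis, TMM-scaled CPM), with the vascular classes at left, their second lists in the middle and 4 other cell types at right. Wild type replicates 3 and 4 lie below the other 4 libraries in 8 of the 10 lists, the exceptions being the mural list, where wild type replicate 1 lies lowest, and the microglia list, where wild type replicate 4 does.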

How the data were processed

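RNA sequencing libraries of total RNA (mirVana isolation, TruSeq Stranded Total RNA kit, per the labels' protocols) were analysed as raw counts of reads per gene, 1 table per library, which the authors deposited without normalization. Per the submitters' processing notes, Trim Galore 0.60, STAR 2.7, HTSeq 1.31 and mm10 were used. The sources used here do not give the annotation release, the strand setting or the treatment of reads with several alignments. Summary lines that name no gene stayed out of totals and tests: reads outside genes were 40.0% to 58.2% and ambiguous reads 1.94% to 14.5% of each library. Of 53379 identifiers, 53274 matched GENCODE M21 (GRCm38), the source of names, positions and exon lengths.

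Counts were tested with edgeR 4.0.16 in R 4.3.3 (quasi-likelihood, robust, TMM, default expression filter, two-sided, Benjamini-Hochberg over 17221 genes, threshold 0.05). Standard errors and 95% intervals were derived from the F statistic. Levels are TMM-scaled CPM. Counting intervals are exact binomial, cover counting error only, and treat reads as independent. On simulated counts with 197 genes changed by a log2 fold of 2 among 17285, 98.5% were recovered, and 4.43% of calls were false. The simulation gave every gene the same fixed spread, and its libraries differed in depth only. It did not copy the differences between the real libraries, so it does not tell what share of real changes the test would find. The labels do not say that libraries came from separate animals, so the p-values speak only for the spread of these libraries, which may be technical. Libraries of a group differed by a chi-square per degree of freedom of at least 49.8, so none was a copy of another. Alternatives were DESeq2 1.42.0 (test and size factors), limma-voom (limma 3.58.1), other scalings and filters, removal of ribosomal, haemoglobin, mitochondrial and small RNA genes, and leaving out libraries.

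The 36 genes and all other lists were chosen with earlier results of these data known. All 36 are named. Values per library are given for the member of each role with the smallest p, the largest fold change or the highest level per kilobase (mean of at least 1 CPM), and up to 3 genes with the smallest p of each pathway list are named. Mfsd2a, Myh11, Sparc, Nrp1, Notch1 and Lrp6, and the genes of the knockout library ratio, were added after their values were seen.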

Additional observations from a re-analysis of the deposited data

How the results depend on the processing

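With all 6 libraries, edgeR called 1 gene higher and 0 lower over all genes. Without the filter on low counts it called 4 higher and 1 lower, DESeq2 called 15 higher and 6 lower, and without the 2 libraries with the most ribosomal RNA, chosen after seeing the data, 0 were higher. Leaving out 1 library gave 1 to 306 genes higher and 0 to 15 lower, and 0 to 8 vascular genes higher and 0 lower. The largest of these counts came without wild type replicate 1. The median log2 fold change then ranged from 0.303 to 1.34 (endothelial), 0.542 to 1.18 (mural) and 0.821 to 2.39 (fibroblast), the last value again without wild type replicate 1. Of the 34 genes, 32 kept their sign in all 6 of these fits. Bsg ranged from -0.184 (without wild type replicate 4) to 0.229, and Cdh5 from -0.015 (without knockout replicate 7) to 0.225, and the cause was not tested. The other scalings, filters and tools left every sign and every vascular call as it was, with 33 genes tested when at least 1 CPM in 3 libraries was asked. No paired analysis was possible because the groups share no replicate number. Depth limits Acta2, Tagln, Anpep, Kcnj8, Ly6c1, Sox17, Dcn and Lum, which had under 10 reads in at least 1 library.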

Other observations

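Lists for blood and perivascular cells had these values. The 5 red blood cell genes summed to 94.6, 123.8 and 33.7 CPM in replicates 1, 3 and 4 of wild type and to 71.2, 109.5 and 65.6 CPM in replicates 5, 6 and 7 of knockout, with wild type replicate 4 lowest. The 10 genes of border macrophages, which line vessels and meninges, summed to 2551, 2264 and 2067 CPM in wild type and to 1652, 1775 and 2299 CPM in knockout, and 8 of the 10 had a log2 fold change above 0 with a median of 0.20. In both sums the groups overlapped. The median border macrophage gene was at 51.0, 13.03 and 20.03 CPM in wild type and at 31.6, 28.4 and 34.8 CPM in knockout.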
